A study of Mus musculus with 12 samples.

Results

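The genes described here encode 9 cell-surface receptors of the TGF-beta superfamily, measured by RNA sequencing in mouse embryonic stem cells. They were taken by gene name from the deposited expression table, and 9 of 9 were found, each as 1 row, among 13508 named genes. The table held 12 libraries, 3 from each of 4 cell lines on a 129SvEv background. Lines 18 and 26 were wild type (WT), and lines 25 and 39 were Arkadia -/- (called null). Arkadia is an E3 ubiquitin ligase encoded by Rnf111. Each line gave 3 dishes, all kept for 24 h in N2B27 medium on fibronectin and then for 4 h with 10 µM SB431542, a receptor kinase inhibitor. Harvest followed directly for the first dish (SB), while the others were washed and then exposed to Activin A at 10 ng/ml for 3 h or for 6 h. No dish had the inhibitor washed out without Activin, so Activin, removal of the inhibitor, fresh medium and time cannot be told apart. How the lines were derived is not given in the sources used here.

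Ligands of this superfamily bring together a pair of type I and a pair of type II receptors, both of them serine/threonine kinases. The type II receptor phosphorylates the type I receptor, which then phosphorylates SMAD proteins. Acvr1b (ALK4) and Tgfbr1 (ALK5) signal to SMAD2 and SMAD3 for Activin, Nodal and TGF-beta, and their kinases are those that SB431542 blocks. Acvr1 (ALK2) and Bmpr1a (ALK3) signal to SMAD1 and SMAD5 for bone morphogenetic proteins (BMPs). Among the type II receptors, Acvr2a and Acvr2b bind Activin, Nodal and BMPs, Tgfbr2 binds TGF-beta, and Bmpr2 binds BMPs. Tgfbr3 (betaglycan) is a co-receptor without a kinase that presents TGF-beta and also binds inhibin. Nodal and Activin signalling is known in pluripotent and epiblast cells for its part in maintaining and patterning them.

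What each value covers differed sharply among the 9 genes. For 6 of them the quantified locus held the whole annotated coding sequence. These were Acvr1b (chr15:101174093-101211977), Tgfbr1 (chr4:47353222-47414931), Acvr1 (chr2:58446434-58566932), Bmpr1a (chr14:34410761-34503178), Acvr2a (chr2:48814008-48949289) and Acvr2b (chr9:119402134-119444280), in mm10, with Acvr1 and Bmpr1a on the minus strand and the other 4 on the plus strand. Of these 6 loci, that of Acvr1b held 60.8% of the gene's exon bases and that of Acvr1 73%, while the others held 97% or more. For the other 3 genes the locus was a short untranslated stretch with no coding base. The Tgfbr2 locus (chr9:116087720-116088732, minus strand) was 1013 bases inside the 3′ untranslated part of the last of 8 exons, 12.4% of the gene's exon bases. The Bmpr2 locus (chr1:59763552-59764252, plus strand) was 701 bases of the 5′ untranslated part of exon 1 of 13, or 3.9% of the exon bases, and it ended 27 bases before the start that RefSeq gives the gene. The Tgfbr3 locus (chr5:107106721-107107111, minus strand) was 391 bases in the 3′ untranslated part of the last of 17 exons, or 5.97% of the exon bases. A value for Tgfbr2, Bmpr2 or Tgfbr3 therefore describes that stretch and not the transcript as a whole. Without strand the reads of overlapping genes cannot be told apart, and 5 of the loci with the whole coding sequence overlap another annotated gene. Acvr2a overlaps Orc4, Acvr1 overlaps Gm17409, Bmpr1a overlaps Gm17110, Acvr1b overlaps Mir6962, and Acvr2b overlaps 4930516B21Rik and Gm47320.

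**Figure D1:**
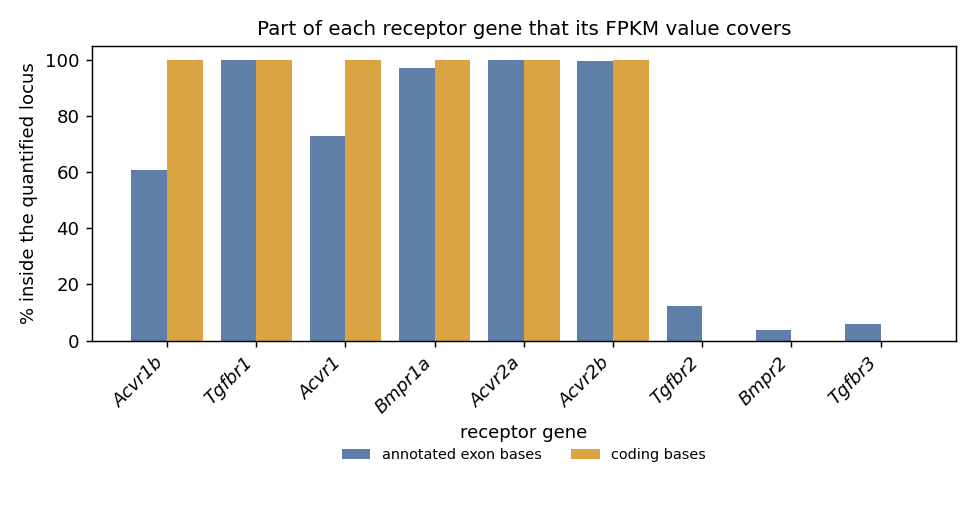
Percent of each receptor gene's annotated exon bases (blue) and coding bases (yellow) that lie inside the locus its FPKM value was computed on. Tgfbr2, Bmpr2 and Tgfbr3 have no coding base inside the locus and 12.4, 3.9 and 5.97% of their exon bases.

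The sequence just upstream of the annotated first exon is printed for Tgfbr2 and Tgfbr1 because Tgfbr1 rose and the Tgfbr2 stretch fell at 3 h in the mean of both genotypes, and because the stretch measured for Tgfbr2 lies at the far end of its gene from this start. Both are from RefSeq's promoter windows of GRCm38.p6, 5′ to 3′ on the gene's strand. Capitals mark CAGAC, the core of the SMAD-binding CAGA box, in Tgfbr2 (chr9:116175361-116175613, minus strand) and GGCGCC, a GC-rich SMAD-binding element, in Tgfbr1 (chr4:47352972-47353221, plus strand).
Tgfbr2: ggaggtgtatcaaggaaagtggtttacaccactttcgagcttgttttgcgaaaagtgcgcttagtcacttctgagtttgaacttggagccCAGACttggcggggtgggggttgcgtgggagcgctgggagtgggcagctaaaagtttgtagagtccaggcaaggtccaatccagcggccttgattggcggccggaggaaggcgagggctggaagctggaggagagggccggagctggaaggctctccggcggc
Tgfbr1: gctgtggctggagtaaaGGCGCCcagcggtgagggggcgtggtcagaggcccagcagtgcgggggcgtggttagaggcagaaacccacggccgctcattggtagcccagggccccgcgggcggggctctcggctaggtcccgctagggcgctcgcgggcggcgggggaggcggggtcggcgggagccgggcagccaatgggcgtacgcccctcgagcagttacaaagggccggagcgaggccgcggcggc
RefSeq windows of 300 bases (250 before the start and 50 after it) were found for 8 of the 9 genes, giving 9 windows because Tgfbr1 had a second one, and none was found for Tgfbr3. CAGAC, on either strand, occurred in 4 of the 9 windows (those of Acvr2a, Acvr2b and Tgfbr2 and the second window of Tgfbr1), against 49.6% of all 32851 mouse windows. GGCGCC occurred in 4 (those of Acvr1b, Bmpr1a and Bmpr2 and the first window of Tgfbr1), against 11.9% of all windows. The GC content of these 4 windows was 79.67% for Acvr1b, 79.33% for Bmpr1a, 59.33% for Bmpr2 and 74.67% for Tgfbr1, and the median of all windows was 52.7%. The SMAD palindrome GTCTAGAC and the FOXH1 site AATCCACA occurred in none of the 9 windows and in 0.213% and 0.855% of all windows. The palindrome and CAGAC have AGAC in common, but neither contains the other. These matches describe letters only.

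Values are FPKM, which scales reads to transcript length and to the reads of the library. The length used for each locus, which can hold introns, is not given in the sources used here. Levels of different genes, above all those of the short partial loci, can therefore be compared only roughly. Summed FPKM per library ranged from 578104 to 805752. Read totals are unknown, but the steps between low values gave relative depths of 1 to 1.51 in the 6 h libraries, 1.22 to 1.57 in the 3 h libraries and 1.47 to 1.81 in the SB libraries. For Acvr2a, reads came out as whole numbers of 324 to 716 per library. For the partial loci they could be set only approximately, at 23 to 80 reads for Bmpr2, 10 to 73 for Tgfbr2 and 14 to 84 for Tgfbr3. Rnf111, the targeted gene, was lower in null than in WT lines on the log2(FPKM + 1) scale, with differences of -1.52 in SB, -1.47 at 3 h and -1.43 at 6 h (limma, adjusted p = 0.0010, 0.00095 and 0.0013). With the 3 libraries of a line averaged, the Rnf111 difference was -1.47 and did not pass (limma, adjusted p = 0.060). All 8 pluripotency markers had a median FPKM of at least 1 (Pou5f1 774). Of 8 fibroblast markers, Postn and Lum were not in the table and the other 6 summed to 10.1 to 20.0 FPKM.

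The receptor genes were of low to middle abundance. Over the 12 libraries Bmpr1a had the highest level, with a median of 15.1 FPKM (13.6 to 15.8). It was followed by Tgfbr1 at 8.43 (7.10 to 10.0), the Tgfbr3 stretch at 5.77 (2.75 to 12.3), Acvr1b at 3.60 (2.66 to 4.62) and Acvr2a at 3.32 (2.73 to 3.77). The lowest were the Bmpr2 stretch at 3.15 (1.48 to 5.43), Acvr1 at 1.99 (1.48 to 2.62), Acvr2b at 1.52 (1.36 to 1.84) and the Tgfbr2 stretch at 1.33 (0.607 to 2.48). Only Bmpr1a stood clear of its neighbour in this order, and the ranges of every other pair of neighbours overlapped. The 4 type I receptor genes together summed to 26.3 to 31.9 FPKM per library, and Bmpr1a made up 48.0 to 54.0% of that sum. Of the other type I and type II receptor genes, Acvr1c, Acvrl1 and Bmpr1b had no row, and Amhr2, the anti-Müllerian hormone type II receptor, ranged from 1.91 to 4.17 FPKM.

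**Figure D2:**
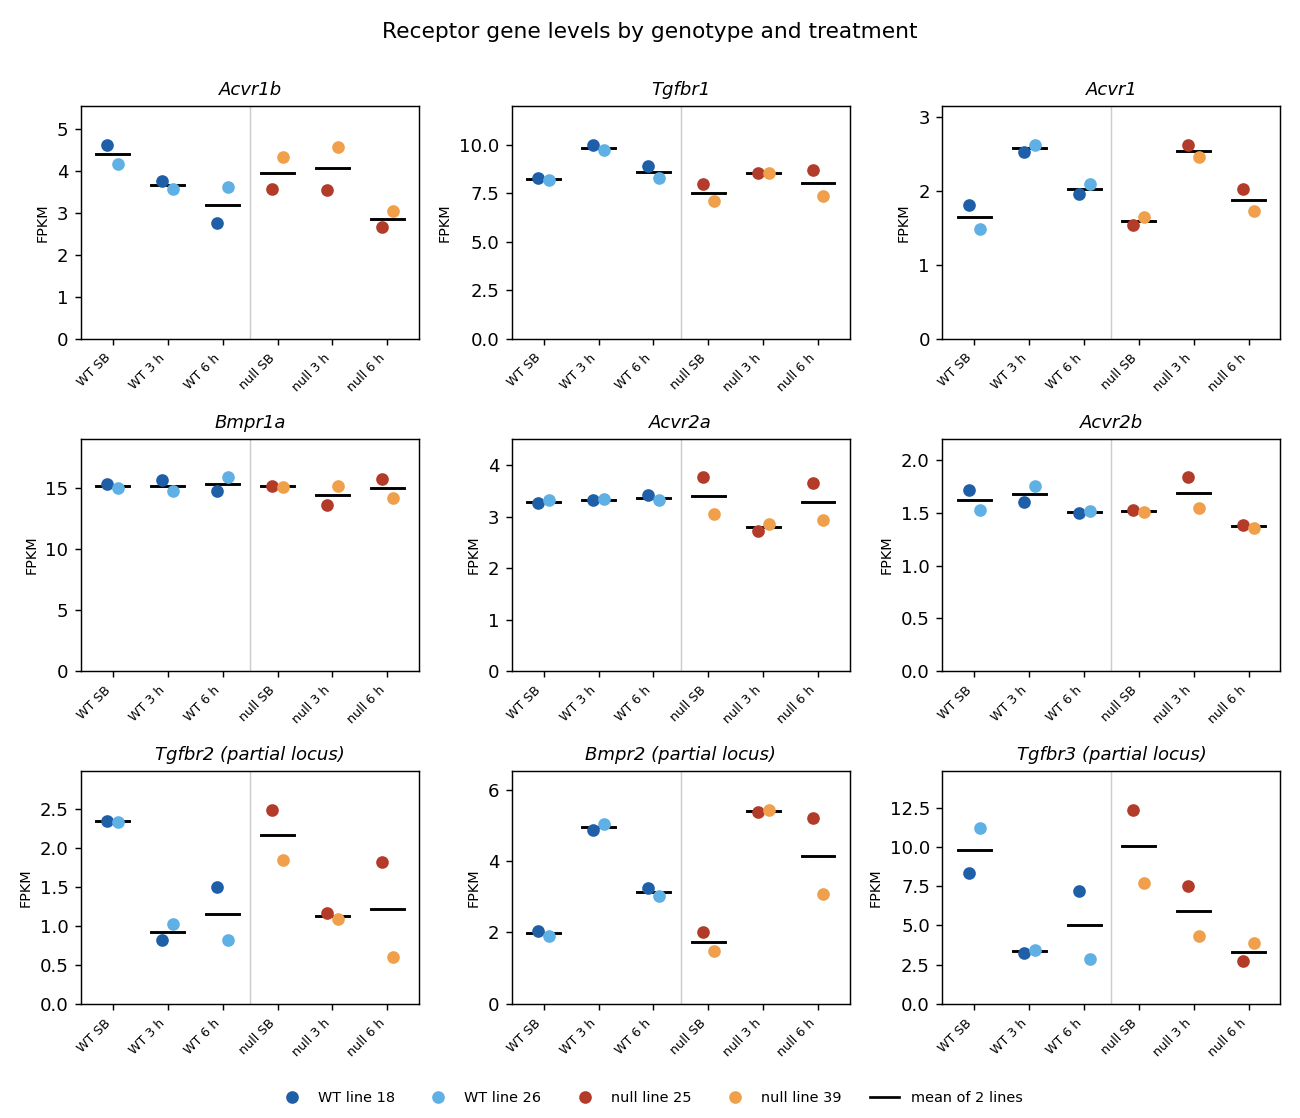
FPKM of the 9 receptor genes in each library, by genotype and treatment; each point is 1 library, coloured by cell line, and bars are means of 2 lines. The Bmpr2 stretch lies at 1.48 to 2.05 FPKM in SB and at 4.87 to 5.43 after 3 h, and Acvr1 lies highest at 3 h, while Bmpr1a stays between 13.6 and 15.8.

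The BMP type I receptor gene Acvr1 rose after 3 h of Activin in both genotypes. Its SB level was 1.80 FPKM in line 18 and 1.48 in line 26, the WT lines, and 1.54 in line 25 and 1.65 in line 39, the null lines. Values of lines are given in this order throughout. At 3 h the values were 2.52 and 2.62 in WT and 2.62 and 2.46 in null. At 6 h they were 1.96 and 2.09 in WT and 2.02 and 1.72 in null. Every 3 h library was thus above every SB and every 6 h library, and the 6 h values overlapped those in SB. The mean FPKM at 3 h was 1.57 times that in SB in WT and 1.59 times in null. On the log2(FPKM + 1) scale, which understates changes of low values, the difference was 0.44 (SE 0.098, limma, adjusted p = 0.018) in WT and 0.45 (SE 0.098, limma, adjusted p = 0.021) in null. At 6 h it was 0.20 (limma, adjusted p = 0.18) and 0.15 (limma, adjusted p = 0.33). The fall from 3 to 6 h passed the test only for the mean of both genotypes, at -0.27 (SE 0.069, limma, adjusted p = 0.036), a contrast added after the data were seen. That call was lost without any 1 line (adjusted p of 0.28, 0.30, 0.089 and 0.11 without lines 18, 26, 25 and 39), while the difference stayed at -0.29 to -0.25. The 3 h call was lost with any line of its own genotype left out. In WT the difference was 0.55 without line 18 (adjusted p 0.27) and 0.33 without line 26 (0.36). In null it was 0.39 without line 25 (0.17) and 0.51 without line 39 (0.060), and it stayed at 0.45 without either WT line, with the call lost (0.12).

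Bmpr1a, the other BMP type I receptor gene, was the steadiest of the 9. The WT lines measured 15.3 and 14.9 FPKM with SB, 15.6 and 14.7 after 3 h, and 14.8 and 15.8 after 6 h. The null lines measured 15.2 and 15.0 with SB, 13.6 and 15.1 after 3 h, and 15.7 and 14.1 after 6 h. The groups overlapped throughout, and the coefficient of variation over the 12 libraries was 4.32%, against 20.7% for Acvr1. The mean log2 difference at 3 h in WT had a 95% interval of -0.17 to 0.17. The ratio of Bmpr1a to Acvr1 in FPKM was 9.30 ± 1.13 (SD, n = 2) in WT in SB, 5.89 ± 0.40 at 3 h and 7.54 ± 0.029 at 6 h. The null ratio was 9.48 ± 0.54, 5.67 ± 0.69 and 7.98 ± 0.31.

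Neither Activin and TGF-beta type I receptor gene passed the test in WT or in null alone. Each passed in the mean of both genotypes, Tgfbr1 upward at 3 h and Acvr1b downward at 6 h. The contrasts of that mean were added after the data were seen. For Tgfbr1 the WT lines gave 8.31 and 8.18 FPKM with SB, 10.0 and 9.71 after 3 h, and 8.91 and 8.31 after 6 h. The null lines gave 7.96 and 7.10 with SB, 8.55 and 8.56 after 3 h, and 8.72 and 7.38 after 6 h. All 4 libraries at 3 h were above all 4 in SB. The log2 difference of 0.23 (SE 0.085) in WT had an adjusted p of 0.081 with limma, and 0.032 with the cell line as a replicate block. In null it was 0.17 (limma, adjusted p = 0.22). For the mean of both genotypes Tgfbr1 rose by 0.20 (SE 0.060, limma, adjusted p = 0.031), a call lost without line 18 (0.23), line 26 (0.20) or line 39 (0.053).

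Acvr1b was lower at 6 h in every line than in SB. The WT lines went from 4.62 and 4.17 FPKM in SB to 3.75 and 3.57 at 3 h and 2.75 and 3.62 at 6 h. The null lines had 3.57 and 4.32 with SB, 3.55 and 4.58 at 3 h, and 2.66 and 3.04 at 6 h. Within each genotype the 6 h values lay below those in SB, but over both genotypes they overlapped. The mean at 6 h was 0.72 times that in SB in both. The log2 difference was -0.38 in WT (SE 0.14, limma, adjusted p = 0.095, and 0.043 with the replicate block) and -0.36 in null (SE 0.14, limma, adjusted p = 0.12). For the mean of both genotypes Acvr1b fell by 0.37 (SE 0.099, limma, adjusted p = 0.020), and this call was lost without line 18 (0.25) or line 26 (0.080). The ratio of Tgfbr1 to Acvr1b spanned 1.64 to 3.28 over the libraries, with group means of 1.88 ± 0.11 (SD, n = 2) in SB, 2.69 ± 0.037 at 3 h and 2.77 ± 0.67 at 6 h in WT. In null they were 1.94 ± 0.42, 2.14 ± 0.38 and 2.85 ± 0.61.

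The type II receptors of Activin and Nodal showed no called change. Acvr2a lay between 3.26 and 3.43 FPKM in all 6 WT libraries. The null lines had 3.77 and 3.06 with SB, 2.73 and 2.86 at 3 h, and 3.65 and 2.93 at 6 h, so that the 3 h values were lowest. The null difference at 3 h was -0.21 (95% interval -0.45 to 0.029, limma, adjusted p = 0.21). Its locus is the one that overlaps Orc4. Acvr2b ranged from 1.50 to 1.76 FPKM in WT and from 1.36 to 1.84 in null. Its largest difference from SB was 0.10 at 3 h in null (95% interval -0.12 to 0.31, limma, adjusted p = 0.53). The Acvr2b interval includes a rise of the size measured for Tgfbr1.

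The 5′ stretch of Bmpr2, a type II BMP receptor, rose more than any other receptor value. With SB the WT lines measured 2.05 and 1.91 FPKM, and the null lines 2.01 and 1.48. At 3 h it measured 4.87 and 5.04 in WT and 5.37 and 5.43 in null, from about 80 and 80 reads and about 75 and 69 reads. At 6 h it measured 3.24 and 3.02 in WT and 5.19 and 3.07 in null. No Activin library overlapped any SB library, and at 6 h null line 25 stood above the other 3. The mean at 3 h was 2.50 times that in SB in WT and 3.10 times in null, and at 6 h 1.58 and 2.37 times. The log2 difference at 3 h was 1.00 in WT (SE 0.18, limma, adjusted p = 0.0070) and 1.23 in null (SE 0.18, limma, adjusted p = 0.0041). At 6 h it was 0.88 in null (SE 0.18, limma, adjusted p = 0.015, and 0.11 without line 18 or line 26) and 0.47 in WT (SE 0.18, limma, adjusted p = 0.095, and 0.041 with the replicate block). Without line 18 or line 26 the 3 h adjusted p was 0.24 to 0.25 in WT and 0.059 in null, while that for the mean of both genotypes stayed under the threshold without any 1 line.

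The 3′ stretch of Tgfbr2, the TGF-beta type II receptor, was lower after Activin in every line. The WT lines went from 2.35 and 2.33 FPKM with SB to 0.824 and 1.02 after 3 h and 1.50 and 0.816 after 6 h. The null lines went from 2.48 and 1.85 to 1.17 and 1.08 at 3 h and 1.82 and 0.607 at 6 h. No library with Activin reached the lowest SB library, although null line 25 at 6 h came close. The WT mean at 3 h was 0.39 times that in SB, with about 22 and 26 reads against about 59 and 72. The log2 difference was -0.80 (SE 0.25) in WT, with an adjusted p of 0.051 from limma and 0.026 with the replicate block, and -0.57 in null (limma, adjusted p = 0.16). For the mean of both genotypes it fell by 0.68 at 3 h (SE 0.18, limma, adjusted p = 0.017) and by 0.61 at 6 h (SE 0.18, limma, adjusted p = 0.028), in contrasts added after the data were seen. Both calls were lost without line 18 (0.15 and 0.14) or line 26 (0.11 and 0.21), and the 6 h call without line 39 (0.052) or with only the libraries in SB and at 6 h in the fit (0.060).

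The 3′ stretch of the co-receptor Tgfbr3 was also lower after Activin. With SB the WT lines stood at 8.35 and 11.2 FPKM, and the null lines at 12.3 and 7.72. At 3 h it stood at 3.27 and 3.44 in WT and 7.53 and 4.33 in null, and at 6 h at 7.22 and 2.84 in WT and 2.75 and 3.88 in null. All 8 Activin libraries were below all 4 SB libraries. The lines of a group lay far apart, however, in null with SB and after 3 h and in WT after 6 h. It fell by 1.30 on the log2 scale in WT at 3 h (SE 0.37, limma, adjusted p = 0.039) and by 1.33 in null at 6 h (SE 0.37, limma, adjusted p = 0.048). The differences in null at 3 h (-0.68, limma, adjusted p = 0.24) and in WT at 6 h (-0.93, limma, adjusted p = 0.11) did not pass. The WT call was lost without line 18 (0.25) or line 26 (0.29), and the null call without any 1 line (0.070 to 0.33). The 6 h values in null rested on about 14 and 15 reads.

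Counted over the receptor genes, 3 of 9 were called in WT at 3 h (Bmpr2 and Acvr1 higher, Tgfbr3 lower), against 22.5% of the 12823 genes tested, and 5 with the replicate block, which adds Tgfbr1 and Tgfbr2, against 37.2% of genes. The WT count at 3 h was 0 without line 18 (1.15% of genes) or line 26 (1.07%) and 5 without line 25 or line 39 (34.4% in both), so the share of all genes called moved with it. In null 2 of 9 were called at 3 h (Bmpr2 and Acvr1, both higher) against 13.6% of genes, and 2 at 6 h (Bmpr2 higher, Tgfbr3 lower) against 13.4%. Each count was 0 without line 18 or line 26, where 1.93% of genes were called at 3 h and 3.06% at 6 h, and 1 without line 25 (3.53 and 11.2%) or line 39 (16.3 and 14.0%). In WT at 6 h limma called 0 of 9, against 15.9% of genes, with 4 at an unadjusted p under 0.05, 2 with the replicate block (Bmpr2 and Acvr1b, with 33.9% of genes called) and 2 without line 25 or line 39 (Bmpr2 and Tgfbr2, with 30.7 and 30.8%). The mean of both genotypes, in contrasts added after the data were seen, gave 5 of 9 at 3 h (37.5% of genes) and 4 at 6 h (37.1%). At 3 h Bmpr2, Acvr1 and Tgfbr1 were higher and Tgfbr2 and Tgfbr3 lower. At 6 h Bmpr2 was higher and Acvr1b, Tgfbr2 and Tgfbr3 lower. Without line 18 or line 26 the 3 h count was 1 (Bmpr2), with 6.02 and 6.74% of genes called, and the 6 h count 1 or 0, with 5.32 and 6.94%. Counts of 9 genes near these shares are no result about the receptors as a set. The median absolute log2 difference of the 9 was 0.23 in WT and 0.21 in null at 3 h, beside 0.22 and 0.19 over all genes tested.

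Between 3 and 6 h, limma called 0 of 9 in WT (2.53% of genes) and 0 of 9 in null (4.63%), each with 2 at an unadjusted p under 0.05, and Bmpr2 was called in WT without line 25 (0.039) or line 39 (0.038), with 3.62 and 3.63% of genes called. The mean of both genotypes called 1 of 9 (12.8%), Acvr1, and 3 with the replicate block (22.9%), which adds Bmpr2 (-0.44, limma, adjusted p = 0.051 without the block and 0.023 with it) and Acvr1b (-0.28, limma, adjusted p = 0.10 and 0.049).

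**Figure D3:**
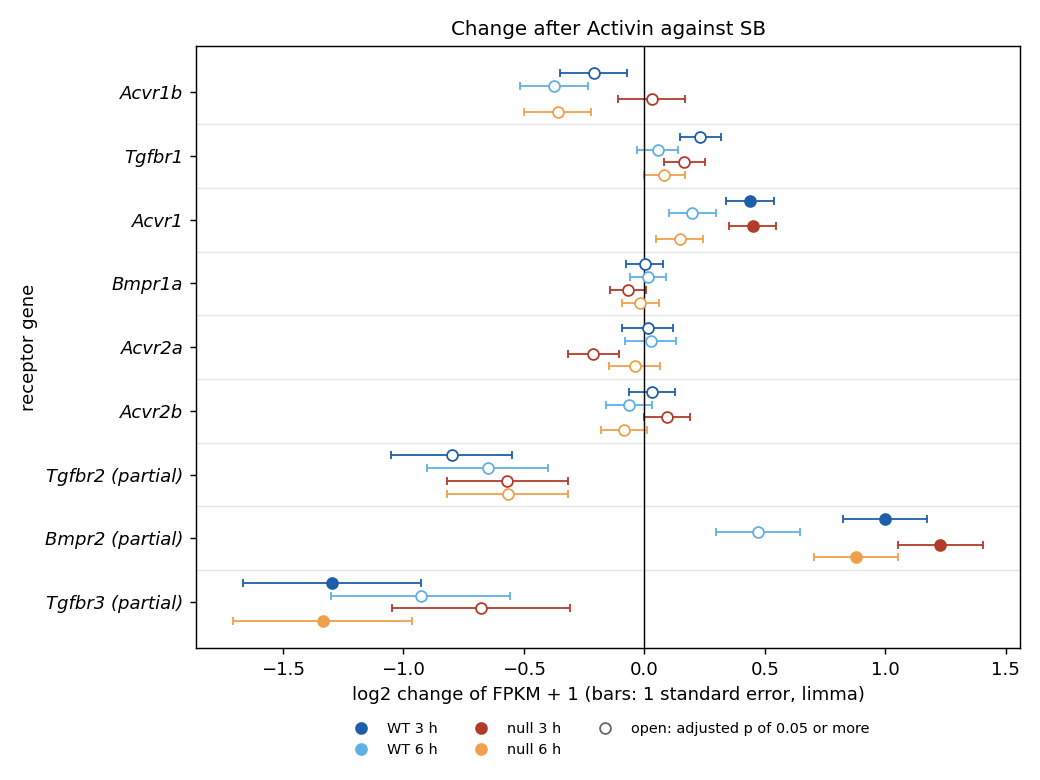
Change of log2(FPKM + 1) from SB to 3 or 6 h of Activin for each receptor gene and genotype, with bars of 1 standard error from limma; filled points have an adjusted p below 0.05. Bmpr2 lies to the right, at 0.47 to 1.23, Tgfbr2 and Tgfbr3 to the left, and Bmpr1a close to 0.

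No receptor gene passed the test between null and WT lines. Limma called 0 of 9 in SB (0.312% of genes), at 3 h (0.382%) and at 6 h (0.211%), with 0 at an unadjusted p under 0.05 in each, and 0 of 9 when the 3 libraries of a line were averaged (0% of genes). The adjusted p-values of the receptor genes ran from 0.42 to 1.00. With the 3 libraries of a line averaged, Rnf111, the targeted gene, did not pass either (limma, adjusted p = 0.060). No conclusion about the receptors is drawn from the 0 of 9 in that fit. The narrowest intervals were those of Bmpr1a, with a null minus WT difference of -0.18 to 0.17 in SB on the log2 scale, and the widest those of Tgfbr3, at -0.83 to 0.86. Tgfbr1 was lower in the null lines at 3 h, at 8.55 and 8.56 against 10.0 and 9.71 FPKM, without overlap (difference -0.18, 95% interval -0.38 to 0.0095, limma, adjusted p = 0.42). Acvr2a was also lower in null at 3 h without overlap (difference -0.19, interval -0.43 to 0.049, limma, adjusted p = 0.50). Tgfbr3 was higher in null at 3 h, at 7.53 and 4.33 against 3.27 and 3.44 FPKM (difference 0.63, interval -0.21 to 1.48, limma, adjusted p = 0.53).

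The response to Activin itself was compared between genotypes by the interaction term, and limma called 0 of 9 at 3 h and 0 of 9 at 6 h (0% of genes in both, and 0 of 9 at an unadjusted p under 0.05). For Bmpr2 the response was larger in null by 0.23 at 3 h (interval -0.33 to 0.79) and by 0.41 at 6 h (interval -0.16 to 0.97). For Acvr1 the difference at 3 h had an interval of -0.30 to 0.33. With 2 lines a genotype, the values are compatible with any difference inside these intervals.

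**Figure D4:**
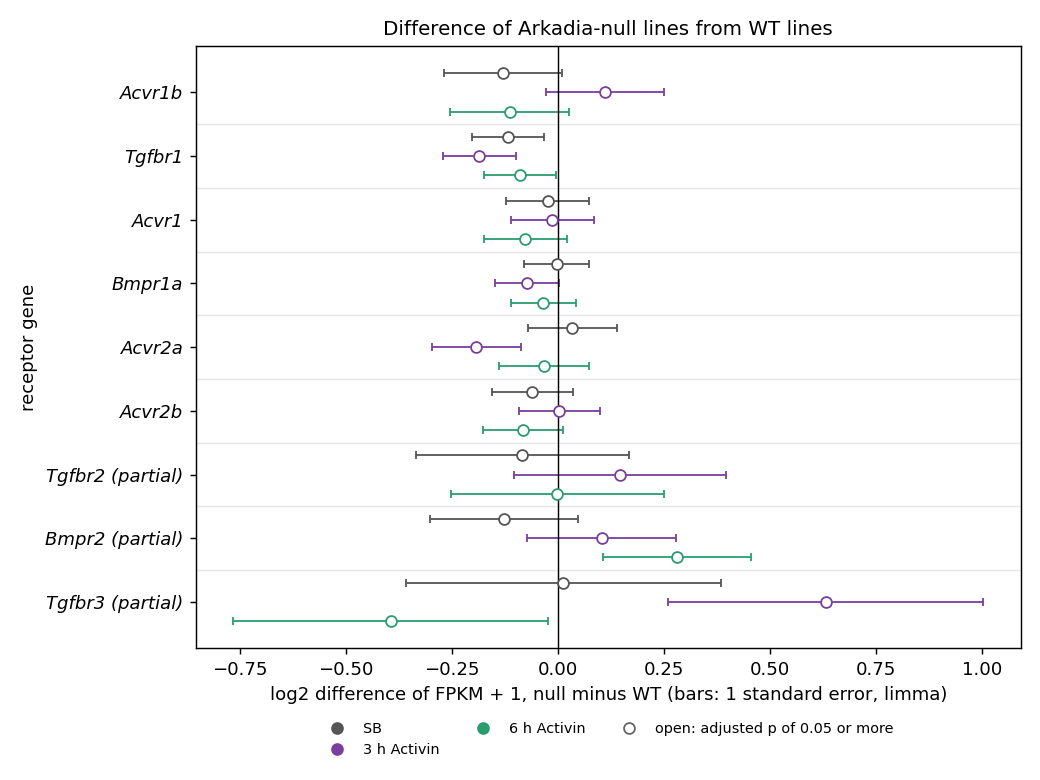
Difference of null from WT lines in log2(FPKM + 1) for each receptor gene in SB and after 3 and 6 h of Activin, with bars of 1 standard error from limma. No point is filled, so none has an adjusted p below 0.05, and the bars of the partial loci Tgfbr2, Bmpr2 and Tgfbr3 are the widest.

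Several genes that act around the receptors had larger log2 changes than any receptor gene. The counts below stand against 22.5% of all genes tested called in WT at 3 h and 13.6% in null, with no test of any list. Among 9 tested co-receptors and decoys, 2 rose and 1 fell in WT at 3 h: Tdgf1, the Nodal co-receptor Cripto, by 4.17, Bambi, a decoy receptor without a kinase, by 1.03, and Rgma, a BMP co-receptor, by -0.97 on the log2 scale (limma, adjusted p = 8.2e-07, 1.0e-04 and 0.016). In null at 3 h Tdgf1 (3.38) and Bambi (0.58) rose and none fell. Bambi was the one of these co-receptors and decoys called between genotypes, higher in null in SB by 0.58 (limma, adjusted p = 0.031). With the 3 libraries of a line averaged, none of them was called. Of 10 secreted antagonists tested, 4 rose in WT at 3 h and 4 in null, led in WT by Lefty1 (6.64) and Lefty2 (5.56), inhibitors of Nodal that are also its targets, and none fell. The median log2 difference of the antagonists was 0.44 in WT and 0.22 in null, beside -0.01 over all genes in both.

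Of 11 ligand genes tested, 2 rose and 1 fell in WT at 3 h, where 22.5% of all genes were called. Nodal rose by 2.74, Gdf3, a Nodal-related factor, by 0.43, and Gdf11 fell by 0.48 (limma, adjusted p = 8.0e-07, 0.0048 and 0.033). Of 23 intracellular regulators of the receptors tested, 4 rose and 2 fell. Smad7, which brings ubiquitin ligases to type I receptors, rose by 3.39. Smad6, an inhibitor of BMP signalling with low values of 0.13 to 1.51 FPKM, rose by 0.83. Pmepa1 rose by 3.25, measured on a partial locus, and Hgs fell by 0.56. Pmepa1 was also lower in null than in WT lines at 3 h (difference -1.21, limma, adjusted p = 0.010). It was the 1 regulator called between genotypes at 3 h, and none was called with the 3 libraries of a line averaged. Of 5 SMAD transducers tested, 2 rose in WT at 3 h, both of the BMP branch that Acvr1, Bmpr1a and Bmpr2 signal to: Smad1 by 0.57 (limma, adjusted p = 0.012) and Smad5 by 0.35 (limma, adjusted p = 0.037). In null Smad1 rose by 0.45 (limma, adjusted p = 0.036). Id1, a target of BMP signalling, rose by 1.80 in WT and 1.19 in null at 3 h and at 6 h differed from SB by 0.04 in WT and -0.85 in null. It was higher in null than in WT lines by 1.73 in SB and by 1.11 at 3 h (limma, adjusted p = 0.0061 and 0.044). With the 3 libraries of a line averaged, Id1 was higher in null by 1.22 and did not pass (limma, adjusted p = 0.061).

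Among the genes whose levels followed Acvr1 most closely over the 12 libraries were Gm38287 and Nrarp, each with a Pearson r of 0.98 on log2(FPKM + 1). For Bmpr2 they were Dzip1l, Endod1 and Tmeff1, each with an r of 0.96. These are descriptions over 12 libraries that share treatments and lines.

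Depth and some of the marker lists moved with treatment beside these results. Null line 39 at 6 h was the shallowest library, at a relative depth of 1, and WT line 26 in SB the deepest, at 1.81. The summed level of the 4 neural markers in the table was 27.5 to 34.6 FPKM with SB, 23.3 to 30.5 after 3 h and 20.8 to 25.0 after 6 h, and that of the pluripotency markers, Nanog and Tdgf1 among them, was 933 to 1056, 1275 to 1525 and 1266 to 1497. The sum of the 3 primitive endoderm markers was 0.919 to 1.79 in SB, 2.02 to 3.34 at 3 h and 1.30 to 2.20 at 6 h, with Gata6, Sox7 and Pdgfra not in the table. Trophoblast markers overlapped across treatments, with sums of 27.7 to 48.3 in SB, 31.2 to 47.45 at 3 h and 29.3 to 43.6 at 6 h. Fibroblast markers overlapped too, at 11.3 to 17.5, 11.2 to 20.0 and 10.1 to 12.9. Single genes weighed most in several sums. These were Pou5f1 (median 774 FPKM) and Tdgf1 (13.9 to 300) among the pluripotency markers. Tubb3 (median 19.0) led the neural markers and Krt8 (median 24.5) the trophoblast markers. A sum can therefore move with a single gene. The part of depth and of these lists in the receptor values was not tested. In bulk RNA, fewer cells of a type and less RNA per cell cannot be told apart.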

How the data were processed

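The 12 poly(A) libraries (50 bp single reads, per the labels' protocols) are in 1 table of FPKM per locus and library that the authors deposited, per the file headers. Per the submitters' processing notes, the genome is mm10. Which aligner and quantifier were used, and whether strand was, is not given in the sources used here. Of 17446 loci, those without a name (2666) or with a status other than OK (27) were left out, and 1 locus a name was kept, that of the highest mean. Loci were compared with GENCODE M21.

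A linear model of log2(FPKM + 1) with 6 group means was fitted by limma 3.58.1 in R 4.3.3. It covered the 12823 genes that reached 1 FPKM in 2 or more libraries, with two-sided p-values adjusted over these genes (Benjamini-Hochberg) and a threshold of 0.05. It was tested on simulated data. Whether a group's 2 lines came from separate derivations is not given. The p-values of this model measure the spread between the 2 libraries of a group, which mixes differences between lines and between dishes. Dishes of a line pair by label. Their deviations correlated at 0.017 to 0.054 in WT and 0.246 to 0.349 in null, and the line was a replicate block in an alternative. The members, the lists and the tests were chosen with earlier results of these data known. All contrasts of the mean of both genotypes were added after the data were seen. All 9 receptor genes are described. Of each list up to 4 called genes with the largest change are named, and for the 2 receptor genes of smallest adjusted p the 3 genes of highest r, of which 1 is not reported here. Other pseudocounts, filters, scalings and left-out lines were tried.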

Additional observations from a re-analysis of the deposited data

How the results depend on the processing

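In WT at 3 h the number of receptor genes called moved with the share of all genes called, which was 22.5% with all lines, 1.07 to 34.4% with 1 line left out, 37.2% with the replicate block and 28.8% with only the groups compared. In null the share was 13.6% at 3 h and 13.4% at 6 h with all lines, 1.37 and 0.99% with only the groups compared, and 29.5 and 31.4% with the block, under which the receptor counts stayed at 2. With 1 line left out in turn, each time leaving 1 library in a group that is assumed to vary like the others, the count ran from 0 to 5 in WT at 3 h (3 with all lines), 0 to 2 in WT at 6 h (0), 0 to 1 in WT from 3 to 6 h (0), 0 to 1 in null at 3 h (2) and 0 to 1 in null at 6 h (2). For the mean of both genotypes it ran from 1 to 4 at 3 h (5), 0 to 3 at 6 h (4) and 0 to 1 from 3 to 6 h (1). With the replicate block that pairs dishes of a line, counts were 5 in WT at 3 h, 2 in WT at 6 h and 3 for the mean of both genotypes from 3 to 6 h, and the block changed no other call. With only the groups compared in the fit, counts were 5 in WT at 3 h, 1 in WT at 6 h, 1 in null at 3 h, 0 in null at 6 h, 0 for both genotypes from 3 to 6 h and, with Tgfbr2 lost, 3 for both genotypes at 6 h. Quantile normalization gave 5 in WT at 3 h, 1 in null at 6 h and 2 for both genotypes from 3 to 6 h, for which median ratio scaling and a pseudocount of 5 also gave 2. Without a filter null at 6 h had 1. An FPKM minimum of 5 left 4 receptor genes to test and counts of 1 in null at 3 h, and 3, 2 and 0 for both genotypes at 3 h, at 6 h and from 3 to 6 h. Beyond the fewer genes or samples in these fits, the causes were not tested.

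Of 64 differences larger than their standard error, 17 were called and 0 of these reversed. In 790 alternatives, 710 stayed on the same side of the threshold in the same direction. Of the rest, 49 lost a call, 27 gained one and 4 reversed, all 4 with a line left out. Only the 17 called differences could lose a call, and for most of the others staying the same meant staying uncalled. The replicate block, a fit of only the groups compared and a left-out line of the other genotype leave a within-genotype difference unchanged. Its direction could not reverse there. The reversed ones, over all lines left out, ran from -0.3434 to 0.0137 for Acvr1b in WT from 3 to 6 h, and, null against WT at 6 h, -0.1966 to 0.0177 for Tgfbr1, -0.0221 to 0.5842 for Bmpr2 and -0.9417 to 0.1549 for Tgfbr3. Another 71 differences were smaller than their standard error. Of these, 50 changed sign under some alternative, in 80 alternatives, and 0 passed the threshold in any. The reads of the partial loci (from about 10 to 84) limit the precision of Bmpr2, Tgfbr2 and Tgfbr3.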
